A study of Mus musculus with 6 samples.

Results

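Platelet adhesion receptors and their ligand von Willebrand factor were followed in mouse haematopoietic cells through 7 genes. These were Gp1ba, Gp1bb, Gp9 and Gp5, which encode the GPIb-IX-V complex, Gp6, which encodes GPVI, Clec1b, which encodes the receptor CLEC-2, and Vwf. They made up 7 of the 25033 gene symbols listed in the deposited tables, and all 7 were among the 12978 symbols with enough counts to be tested. The genes were chosen by name, with earlier results of the same comparison of inhibitor and control libraries in view. Their differences between the groups are therefore given below as a description, without a test.

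Platelets stop bleeding by sticking to the vessel wall, and in fast flowing blood this begins when GPIb alpha holds on to von Willebrand factor bound to exposed collagen. GPVI then binds collagen itself and CLEC-2 binds podoplanin, and both signal through the kinase Syk. These genes are transcribed mainly in megakaryocytes, the marrow cells that shed platelets, and Vwf also in endothelial cells and in the stem cells that lean towards the platelet lineage.

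The labels describe the source as green fluorescent (GFP+) haematopoietic stem cells (HSCs) sorted from bone marrow of C57BL/6J mice, 6 months of age. The recipient mice had been given HSCs treated beforehand either with a control RNA (3 libraries) or with an inhibitor of the microRNA miR-31-5p (3 libraries). The labels state neither what carried the GFP, nor whether the age is that of donors or recipients, nor how long after transplantation the cells were taken. They also do not say that libraries of a group came from different animals, so a p-value here speaks of the scatter of these 6 samples alone, and that scatter may be technical.

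Markers of the sorted cells were checked first. The HSC genes Procr, Mecom, Slamf1 and Hlf stood at 1.06, 0.64, 5.22 and 6.95 CPM (counts scaled to a common library size) in the controls, Hoxb5 had 0 counts in every library, and Fgd5 had 6 counts over the controls and 22 over the inhibitor libraries. The list checked holds stem cell and progenitor genes together, and 10 of its genes were tested. Higher were 3 of them (Procr at 7.55 CPM with the inhibitor, a log2 change of 2.82, Slamf1 at 16.9 CPM, 1.70, and Ctnnal1, 1.24). The 3 lower genes were Hlf (3.65 CPM, -0.92), Ly6a (-0.41) and Cd48 (-0.35), the last not a marker of HSCs. Mecom, Kit, Cd34 and Flt3, 4 in all, did not pass, where 40.5% of all tested genes were called. The summed level of the list overlapped between the groups, at 1086 to 1159 CPM in the controls and 1146 to 1183 CPM with the inhibitor. That sum rests mostly on Kit, Cd34, Flt3 and Cd48, at 401.9, 362.8, 191.3 and 127.0 CPM in the controls. It therefore says little about the far less abundant HSC genes named first. All 10 neutrophil markers were called (40.5% over all genes), 5 higher and 5 lower, with a summed level of 6500.0 to 7354 CPM in the controls and 5766 to 5919 CPM in the inhibitor libraries. The neutrophil sum rests mostly on Mpo (5202 and 4315 CPM), 1 of the 5 lower genes, while S100a8 and S100a9 rose by 1.62 and 1.63. Of 8 monocyte and macrophage markers, 1 was higher, 3 were lower and 4 were not called (40.5% called over all genes). Their median log2 change was -0.001, and their summed level was 3729 to 3823 against 2365 to 2430 CPM. That sum rests mostly on Lyz2 (2243 and 1103 CPM) and Ly6c2 (546.7 and 285.6 CPM), both lower. The part of any of these differences in the results below was not tested. In the controls, Mpo and Lyz2 stood far above Procr, Mecom, Slamf1 and Hlf, so the name HSC is that of the labels. Which of the sorted cells hold the RNA of the 7 genes was not tested. Libraries held 16873188 to 21245861 counts, so that 3 counts correspond to 0.141 to 0.178 CPM. On the second principal component, with 9.5% of the variance, control library 1 lay away from both other controls, and the ribosomal precursor Rn45s had 3667 to 61656 counts in the controls against 1784 to 3145 in the inhibitor libraries.

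The treatment was aimed at miR-31-5p, which is shown because its seed, bases 2 to 8 in capitals, defines the letters searched for in the transcripts. It lies at chr4:88910614-88910635 on the minus strand (RefSeq, GRCm38.p6).
miR-31-5p: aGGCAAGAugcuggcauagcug

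The promoters are shown for the letters read by GATA and ETS factors, the transcription factor families best known for megakaryocyte genes. A link of these letters to the higher levels of the 7 genes was not tested, and the genes were chosen with those levels in view. Sequences are from RefSeq on GRCm38.p6, which held an entry for 6 of the 7 genes and none for Vwf. Each is the 200 bases that end just before the start used in the promoter table, read 5′ to 3′ on the strand of the gene. For Gp1ba, Gp9 and Gp6 that start lies inside the gene span given further down, so part or all of the window is within the gene. Capitals mark the letters of GATA factors (AGATAA or else TGATAA) and of ETS factors (AGGAAG or else CGGAAG), on either strand. On the other strand the first pair reads TTATCT or else TTATCA, and the second CTTCCT or else CTTCCG.
Gp1ba: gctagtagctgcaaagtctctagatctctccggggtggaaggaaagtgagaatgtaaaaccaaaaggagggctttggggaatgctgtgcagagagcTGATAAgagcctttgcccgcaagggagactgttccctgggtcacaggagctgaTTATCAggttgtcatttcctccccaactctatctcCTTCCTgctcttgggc
Gp1bb: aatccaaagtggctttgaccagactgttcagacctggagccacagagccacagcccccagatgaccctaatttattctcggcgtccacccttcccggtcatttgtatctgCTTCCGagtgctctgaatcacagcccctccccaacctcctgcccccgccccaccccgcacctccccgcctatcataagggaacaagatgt
Gp9: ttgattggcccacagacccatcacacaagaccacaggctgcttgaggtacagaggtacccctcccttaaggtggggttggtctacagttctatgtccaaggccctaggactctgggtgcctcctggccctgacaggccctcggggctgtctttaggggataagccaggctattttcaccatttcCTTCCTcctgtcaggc
Gp5: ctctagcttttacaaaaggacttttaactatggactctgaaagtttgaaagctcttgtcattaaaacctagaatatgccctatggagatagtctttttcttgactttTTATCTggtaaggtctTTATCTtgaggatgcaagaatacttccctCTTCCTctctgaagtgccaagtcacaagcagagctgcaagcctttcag
Gp6: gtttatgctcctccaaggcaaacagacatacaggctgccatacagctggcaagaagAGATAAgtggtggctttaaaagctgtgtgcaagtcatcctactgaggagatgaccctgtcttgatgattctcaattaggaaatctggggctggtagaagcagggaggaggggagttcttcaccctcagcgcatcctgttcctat
Clec1b: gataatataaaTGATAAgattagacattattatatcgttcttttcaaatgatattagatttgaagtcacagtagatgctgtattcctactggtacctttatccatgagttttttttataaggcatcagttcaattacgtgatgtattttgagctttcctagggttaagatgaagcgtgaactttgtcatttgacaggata

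The windows are chr11:70638922-70639121 (plus strand) for Gp1ba, chr16:18622404-18622603 (minus) for Gp1bb and chr6:87777870-87778069 (plus) for Gp9. They are chr16:30310782-30310981 (minus) for Gp5, chr7:4397745-4397944 (minus) for Gp6 and chr6:129397097-129397296 (plus) for Clec1b. In the 250 bases before the start, GATA letters were found in 4 of the 6 promoters. They lay 104 to 99 and 51 to 46 bases before the start of Gp1ba, 93 to 88 and 77 to 72 bases before that of Gp5, 144 to 139 bases before that of Gp6, and 189 to 184 bases before that of Clec1b. ETS letters were also found in 4, ending 11 bases before the start in both Gp1ba and Gp9, at 90 to 85 bases in Gp1bb and at 48 to 43 bases in Gp5. Only Gp1ba and Gp5 of the 6 held both. Among all 32851 promoters of the table, 16.6% held the GATA letters, 39.2% the ETS letters and 5.49% both within the same length. A match describes the letters and not a bound site, and the lack of one says only that these letters are not in this window.

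**Figure D1:**
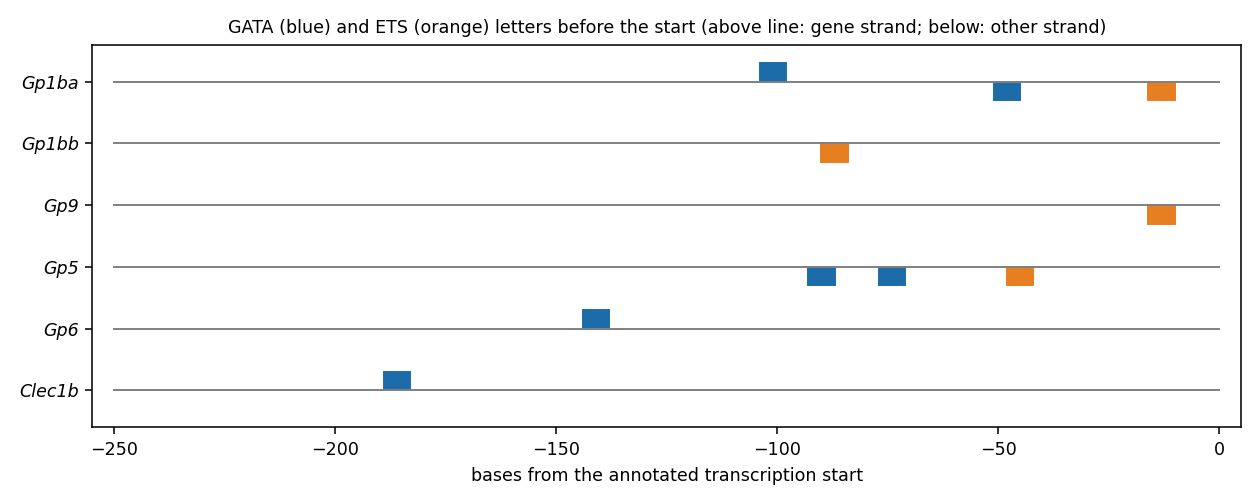
GATA letters (blue) and ETS letters (orange) in the 250 bases before the start used in the promoter table for 6 genes, drawn above the line when on the strand of the gene and below it when on the other strand. Gp1ba and Gp5 hold both kinds, with 2 GATA matches each, and the ETS matches of Gp1ba and Gp9 both end 11 bases before the start.

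The 3′ UTRs, taken from the longest GENCODE annotation per gene, were searched for a match to the seed, the letters TCTTGCC. None of the 7 genes held it, with UTRs of 198 bases in Clec1b, 230 in Gp9, 405 in Gp1bb, 422 in Gp1ba, 466 in Gp5, 738 in Vwf and 4898 in Gp6. Among the 12260 tested genes with an annotated 3′ UTR, 1621 (13.2%) held the 7 letters and 503 (4.10%) held TCTTGCCA. The annotated UTR is that of 1 transcript model, and reads of other transcripts of these genes were not examined.

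All 7 genes were higher in the inhibitor libraries, by 2.14-fold for Gp9 at the lowest and 3.28-fold for Gp1bb at the highest. In each, the 3 inhibitor libraries lay above the 3 control libraries. Over all tested genes, 40.5% passed a Benjamini-Hochberg adjusted p of 0.05 by the quasi-likelihood test of edgeR, 20.4% in the higher and 20.1% in the lower direction. Of the tested genes, 5.37% both passed and were at least 2-fold higher, and 25.9% had all inhibitor libraries above all control libraries. The 7 genes met each of the upward criteria, but they were selected on this same comparison, so nothing is read from these shares. Their median log2 change was 1.51, where that of all tested genes was -0.01, and between 2.03% and 4.85% of tested genes had a larger change than each of them. Changes are on the log2 scale, inhibitor against control, with the SE, unless a fold or a level is named. Since these are bulk samples, more cells of a kind and more RNA per cell cannot be told apart.

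Gp1ba (chr11:70639102-70643986) encodes GPIb alpha, the chain that holds the binding site for von Willebrand factor. Its level, in CPM after scaling by trimmed means (TMM), was 69.3, 67.1 and 76.5 for the controls 1 to 3 and 205.8, 218.2 and 196.0 for the inhibitor libraries 1 to 3. The groups did not overlap, and the lowest inhibitor library stood 2.56-fold above the highest control. The means were 71.0 ± 4.95 and 206.7 ± 11.1 CPM (SD, n = 3 libraries per group), a log2 change of 1.54 ± 0.07 (SE).

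Gp1bb (chr16:18620319-18622403) encodes GPIb beta, the chain that is disulphide-linked to GPIb alpha and needed to bring it to the cell surface. The gene had 34.0, 27.6 and 28.2 CPM in the controls and 99.1, 96.9 and 98.5 CPM in the inhibitor libraries. Control library 1 was the highest control, the inhibitor libraries lay within 1.02-fold of each other, and the gap between the groups was 2.85-fold, the widest of the 7 genes. The log2 change was 1.71 ± 0.08. Gp1bb shares 593 bases with Sept5 (Septin5 in RefSeq) on the same strand, so reads from the shared stretch cannot be assigned to either gene with certainty. Sept5 had 90 counts over the control and 171 over the inhibitor libraries, and Gp1bb had 552 to 677 counts in each control and 1661 to 1929 in each inhibitor library.

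Gp9 (chr6:87776131-87779786) encodes GPIX, the small subunit that holds the complex together. It measured 17.1, 13.4 and 16.5 CPM in the controls and 33.4, 37.5 and 30.0 CPM in the inhibitor libraries. The groups did not overlap, though inhibitor library 3 came within 1.75-fold of control library 1, the narrowest gap of the 7. The change of 1.10 ± 0.11 was the smallest of the 7 in this fit. It was 1.32 when control libraries 1 and 3 were left out and 1.01 to 1.18 when single libraries were left out.

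Gp5 (chr16:30307685-30310781) encodes GPV, a subunit that thrombin cleaves from the platelet surface. The 3 controls had 62.2, 54.0 and 56.9 CPM and the 3 inhibitor libraries 168.7, 164.5 and 158.8 CPM. Every inhibitor library was at least 2.55-fold above every control. The log2 change was 1.51 ± 0.06, close to those of Gp1ba and Gp6.

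The collagen receptor gene Gp6 (chr7:4362853-4397851) gave 17.7, 13.8 and 15.9 CPM in the controls and 44.5, 49.0 and 42.9 CPM with the inhibitor. Control library 2 was the lowest and inhibitor library 2 the highest, and the groups stood 2.42-fold apart. The log2 change was 1.52 ± 0.10, and 1.71 when control libraries 1 and 3 were left out.

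Clec1b (chr6:129397297-129405413), the receptor gene for podoplanin, was the least abundant of the 7. It had 9.14, 9.60 and 9.17 CPM in the controls, from 182 to 195 counts per library, and 20.2, 19.4 and 22.9 CPM in the inhibitor libraries, from 332 to 394 counts. The controls differed by 1.05-fold at most, and the gap to the inhibitor libraries was 2.02-fold. The log2 change was 1.16 ± 0.11. Clec12b, whose RefSeq span contains Clec1b, had 4 counts over the controls and 8 over the inhibitor libraries.

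Vwf (chr6:125552948-125686679), the ligand gene, had the highest counts of the 7. It stood at 219.6, 195.3 and 210.7 CPM in the controls and at 469.8, 468.6 and 461.3 CPM in the inhibitor libraries. The inhibitor libraries were within 1.02-fold of each other and 2.10-fold above the highest control. The log2 change was 1.16 ± 0.06.

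**Figure D2:**
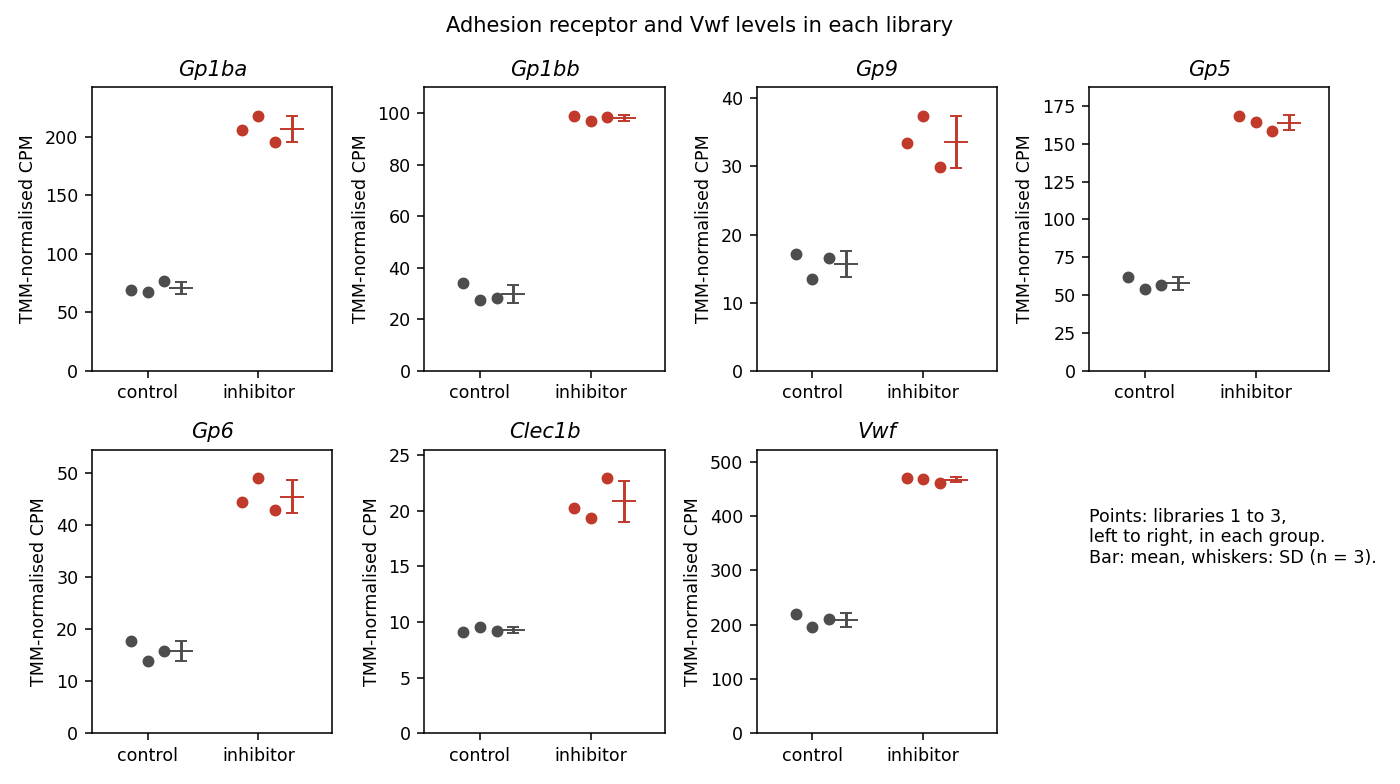
TMM-normalised CPM of each gene in each library (points, libraries 1 to 3 from left to right in each group), with the mean and SD of 3 libraries beside them. In all 7 panels the inhibitor libraries lie above the control libraries, with Gp9 the closest and Gp1bb the farthest apart.

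Together the 7 genes took 0.0423, 0.0384 and 0.0414% of the counts of the controls, and 0.104, 0.106 and 0.101% of those of the inhibitor libraries, each in the order 1 to 3. Among the controls, library 1 held the highest value of 5 of the 7 genes and library 2 lay below the mean of its group for 6. In the inhibitor group, library 1 was highest for 3 genes, library 2 for 3 and library 3 for 1, so no library was highest throughout. None of the 7 changed direction in any of the alternative analyses. Over these, the log2 change ranged from 1.50 to 1.62 for Gp1ba, 1.66 to 1.83 for Gp1bb, 1.47 to 1.60 for Gp5 and 1.44 to 1.71 for Gp6. It ranged from 1.01 to 1.32 for Gp9, 1.09 to 1.21 for Clec1b and 1.12 to 1.25 for Vwf.

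Levels of different genes were compared per transcript length, with the deposited RPKM (reads scaled to transcript length and library size). In the controls, Gp5 had the highest RPKM of the 7 (25.2 ± 1.70, SD, n = 3), followed by Vwf (22.6 ± 1.01), Gp9 (17.1 ± 1.65), Gp1bb (15.6 ± 1.85), Gp1ba (14.6 ± 0.47), Gp6 (13.2 ± 1.40) and Clec1b (7.64 ± 0.52). Gp5 (23.8 to 27.1) was above Vwf (22.0 to 23.8) in each control library, with ranges that met but did not overlap, and the library ranges of Gp9, Gp1bb, Gp1ba and Gp6 overlapped from each gene to the next. Vwf lay clear of Gp9, and Clec1b clear of Gp6. With the inhibitor, Gp5 was again first at 74.5 ± 2.05 RPKM. Gp1bb (53.1 ± 0.53) and Vwf (52.7 ± 0.41) were level within their spread. Gp1ba (44.3 ± 2.36), Gp6 (39.4 ± 2.74) and Gp9 (38.3 ± 4.27) followed with overlapping ranges, and Clec1b was last at 17.8 ± 1.61 RPKM.

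The order depends on the length assigned to a transcript. The deposited length was 4660 bases for Gp1ba, where the longest coding GENCODE transcript has 2710, and 1152 bases for Gp6, where it has 5900. Lengths of Gp5 (2199 and 2197), Gp9 (877 and 881), Clec1b (1170 and 1090), Gp1bb (1847 and 2085) and Vwf (8834 in both) were closer. With the GENCODE lengths, a choice made after seeing the data, Gp1ba moved from the fifth to the second place in the controls, at 26.1 ± 1.86 on the same kind of scale and level with Gp5 at 26.2 ± 1.58, and Gp6 to the last, at 2.67 ± 0.30. The share of Gp1ba in the summed level of the 7 control genes was 12.6% with deposited and 22.0% with GENCODE lengths, and that of Gp6 11.3% and 2.24%. A comparison of 1 gene between libraries does not change with its length.

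**Figure D3:**
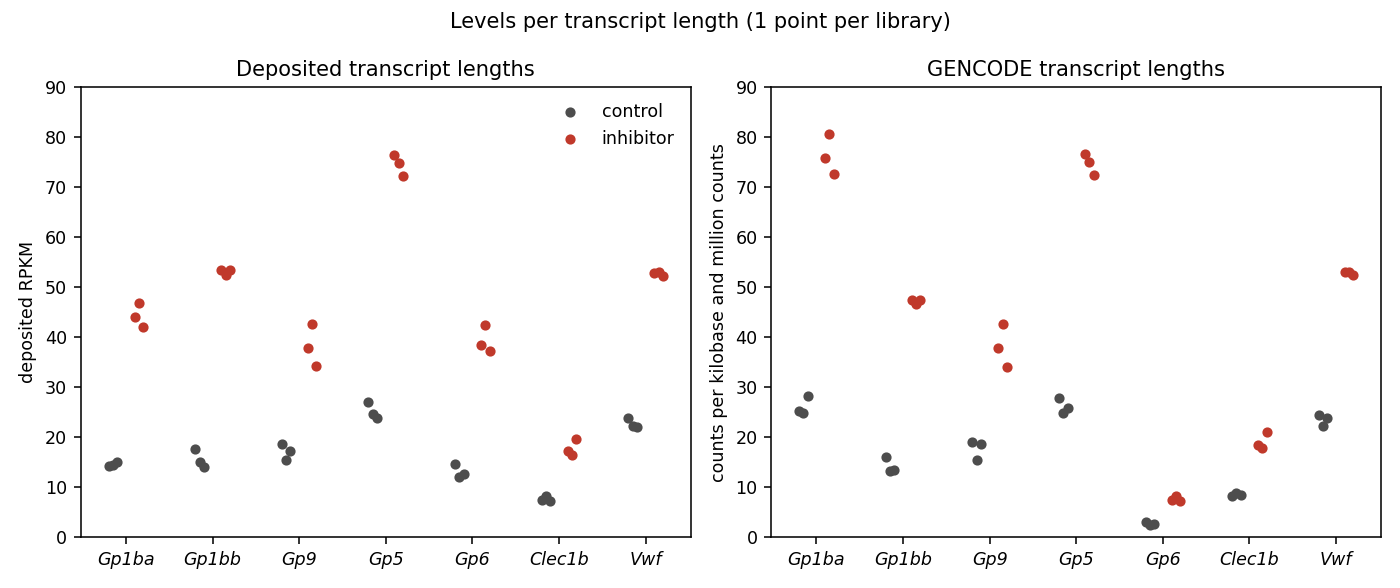
Levels per transcript length of the 7 genes, 1 point per library, as deposited RPKM (left) and as counts scaled to GENCODE transcript length and library size (right). Gp1ba is higher and Gp6 lower with the GENCODE lengths, where Gp5 (26.2) and Gp1ba (26.1) are level in the controls, and every inhibitor point is above the control points of its gene.

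In these 6 libraries the shares of the 4 subunit genes of the GPIb-IX-V complex were compared as a description, without a test. As a share of their summed RPKM, Gp1ba made up 20.2% in the controls and 21.1% with the inhibitor, and Gp5 34.8% and 35.5%, with ranges that overlapped. The share of Gp1bb was 21.4 ± 1.37% (20.0 to 22.7%) in the controls and 25.3 ± 1.11% (24.2 to 26.4%) with the inhibitor, without overlap. That of Gp9 was 23.6 ± 1.30% (22.1 to 24.6%) and 18.2 ± 1.41% (16.9 to 19.7%), also without overlap. With GENCODE lengths the shares of Gp1bb (17.0 and 20.0%) and Gp9 (21.0 and 16.1%) again differed without overlap and in the same directions. Shares within a library depend on each other, so the higher share of Gp1bb and the lower share of Gp9 are not separate results. Gp9 had the fewest counts of the 4 genes. How often other sets of genes part in this way was not examined.

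Ratios of RPKM within a library show the same values pair by pair. Gp1bb to Gp9 was 0.95, 0.97 and 0.81 in the controls and 1.41, 1.23 and 1.56 with the inhibitor, so that every inhibitor library was higher. Gp9 to Gp1ba was 1.17 ± 0.12 and 0.86 ± 0.05, and ligand to receptor, Vwf to Gp1ba, 1.55 ± 0.11 and 1.19 ± 0.06, both lower in every inhibitor library. The ratios of Gp1bb to Gp1ba (1.07 and 1.20), Gp5 to Gp1ba (1.73 and 1.68) and Gp6 to Clec1b (1.73 and 2.24) had overlapping ranges. All of these ratios use the deposited lengths, so their size depends on the lengths of Gp1ba and Gp6, while the overlap of the groups does not. With GENCODE lengths, Gp6 (2.67) lay below Clec1b (8.51) in the controls.

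**Figure D4:**
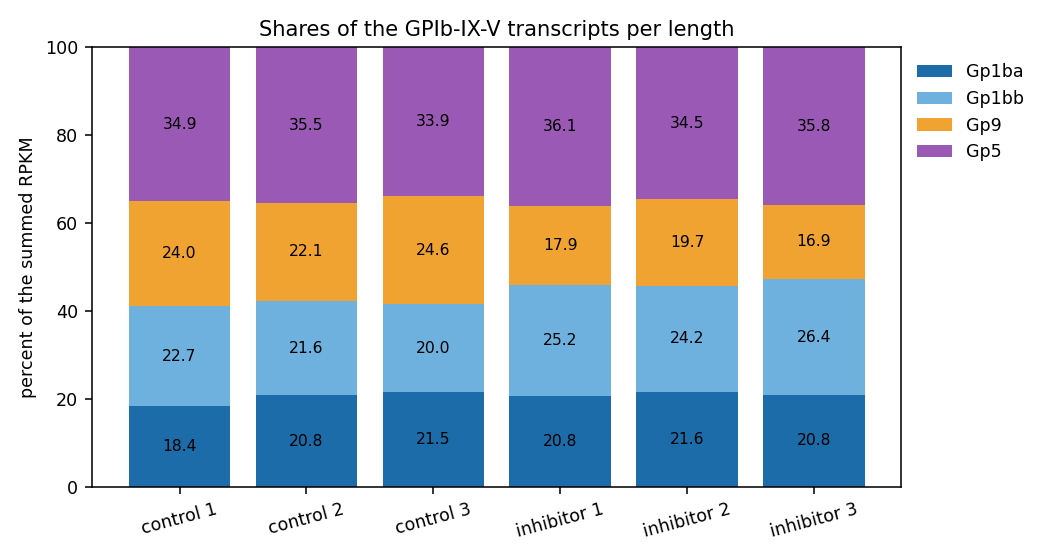
Share of each subunit gene in the summed RPKM of Gp1ba, Gp1bb, Gp9 and Gp5, in percent, 1 bar per library. Gp9 takes 22.1 to 24.6% in the controls and 16.9 to 19.7% in the inhibitor libraries, and Gp1bb 20.0 to 22.7% and 24.2 to 26.4%.

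Megakaryocyte markers were higher beside the 7 genes. Of 15 markers, which hold none of the 7, 14 rose, P2ry12 did not pass (0.39, Benjamini-Hochberg adjusted p = 0.0582 by edgeR's quasi-likelihood fit) and none fell. Their median log2 change was 1.08, beside 40.5% called and a median of -0.01 over all genes, and their summed level was 2429 to 2693 CPM in the controls and 5069 to 5183 CPM with the inhibitor. No marker was at 0. The platelet chemokine gene Pf4 changed by 1.40, the chemokine gene Ppbp by 0.36 and Tubb1, the megakaryocyte tubulin, by 1.98. The part of the number of megakaryocyte-lineage cells in the levels of the 7 genes was not tested. Markers of endothelial cells, the other main source of Vwf, were in part near 0, and those that passed moved both ways. Sox17 and Cldn5 had 0 counts, Cdh5 had 6 over the controls and 6 over the inhibitor libraries, and Emcn, Robo4 and Stab2 had at most 4 in either group. Of 9 tested, 3 were higher (Tie1 by 0.50, Esam by 1.58 and Ptprb from 3 to 41 counts), Egfl7 was lower (-1.61) and 5 did not pass. That is 44.4% called, near the 40.5% over all genes. The summed level of the list overlapped between the groups (91.8 to 108.7 against 83.3 to 94.5 CPM). In the controls that sum rests mostly on Egfl7 (45.4 CPM, and 14.9 CPM with the inhibitor) and Eng (28.0 and 32.6 CPM). The overlap therefore says little about the less abundant Tie1 (9.93 and 14.0 CPM) and Esam (5.85 and 17.5 CPM), which were higher.

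Inside the cell, the tail of GPIb alpha is anchored to filamin, and kinases and calmodulin bind the complex. The 15 genes tested hold such partners together with the adhesion genes Rap1b, Tln1 and Zyx, which are not of this description and all rose. Of the 15, 7 rose and 2 fell, while 6 stayed short of the threshold. The median was 0.13 (40.5% called and a median of -0.01 over all genes). Zyx, which encodes the focal adhesion protein zyxin, averaged 257.1 ± 7.38 CPM in the controls and 468.5 ± 43.4 CPM with the inhibitor, a rise of 0.87 ± 0.07 on the log2 scale seen in all 3 inhibitor libraries. The kinase gene Src rose by 1.14 ± 0.10 and the small GTPase gene Rap1b, which switches on platelet integrins, by 0.65 ± 0.06. Flna, the filamin that binds GPIb alpha, rose by 0.37 ± 0.05 from 1265 CPM. The adaptor gene Ywhaz, whose protein binds the same tail, was at 0.10 ± 0.05 and did not pass. Calm3, a calmodulin gene, fell by 0.19, but the call was lost when control library 3 (-0.20), inhibitor library 2 (-0.19) or inhibitor library 3 (-0.14) was left out, which left 1 lower gene in the list.

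GPVI signals through the Fc receptor gamma chain, encoded by Fcer1g, and CLEC-2 through its own tail, and both lead by way of Syk to phospholipase C gamma. Of 23 signalling genes tested, 8 rose, 5 fell and 10 were not called, and the median was 0.08 (40.5% called over all genes). Fcer1g, which GPVI needs to reach the surface, stood far above Gp6 (15.8 CPM in the controls) and did not follow it. Which cells hold the RNA of Fcer1g was not tested. Fcer1g measured 297.6, 289.7 and 306.8 CPM in the controls and 261.7, 256.9 and 261.5 CPM in the inhibitor libraries, a change of -0.20 ± 0.05. This call was lost without control library 3 (-0.17). Syk rose by 0.17 ± 0.05, a call lost when control library 3 (0.17), inhibitor library 2 (0.15) or inhibitor library 3 (0.17) was left out. The adaptor gene Lcp2 (0.08 ± 0.05) and the phospholipase gene Plcg2 (0.01 ± 0.05) did not pass.

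The larger rises of this group were in Prkcq, the protein kinase C theta gene, at 1.29 ± 0.09, in Src and in the adaptor gene Grap2 at 0.85 ± 0.07. The kinase gene Pik3cb followed at 0.76 ± 0.07, and then Ptprj, a phosphatase that activates Src kinases in platelets, at 0.57 ± 0.05. Tec, a kinase gene, fell by 0.29, and so did Card9, an adaptor gene of myeloid cells, by 0.28. Without inhibitor library 1 (-0.27) or 2 (-0.24), Card9 did not pass. The number of lower genes in this list was 2 without control library 3, inhibitor library 1 or inhibitor library 2, and 3 without inhibitor library 3.

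Receptors and phosphatases that damp GPVI and CLEC-2 signals went both ways, with 8 of 18 tested genes higher, 4 lower and 6 not past the threshold (median 0.09, 40.5% called over all genes). Ubash3b, which encodes a phosphatase that switches off Syk, went from 75.1 ± 1.42 to 158.0 ± 2.43 CPM, a change of 1.07 ± 0.05. Mpig6b, the gene of the inhibitory megakaryocyte receptor G6b-B, rose by 1.08 ± 0.12, the phosphatase gene Ptpn11 by 0.60 ± 0.05 and Pecam1 by 0.25 ± 0.06. The phosphatase gene Ptpn6 fell by 0.43, from 383.5 ± 11.6 to 284.1 ± 5.97 CPM. Dok2, an adaptor gene, fell by 0.44 and Ubash3a, the lymphoid relative of Ubash3b, by 0.36. The call of Dok2 was lost without inhibitor library 3 (-0.30), when 2 lower genes were left in the list.

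For Vwf, genes of its processing, storage, release and removal were examined. Of 27 tested, 12 rose, 8 fell and 7 were not called, and the median was 0.09 (40.5% called over all genes). Mmrn1, which encodes multimerin, a giant protein of platelet and endothelial granules, rose by 1.46 ± 0.07, from 39.6 to 108.7 CPM. Rab27b, a GTPase gene of granule release, measured 164.1, 167.8 and 167.5 CPM in the controls and 363.9, 362.5 and 363.3 CPM with the inhibitor. Its groups lay far apart and its change was 1.13 ± 0.05, similar to that of Vwf at 1.16. Stx11, a membrane fusion gene of platelet secretion, rose by 0.98 ± 0.08, and Nbeal2, needed for alpha granules, by 0.22 ± 0.06.

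The lower genes of the list with the smallest p were Stab1, Scarb1 and Lman1, and they are named for that. Stab1, whose product is a scavenger receptor, fell by 1.15, from 49.2 ± 2.47 to 22.2 ± 1.34 CPM, and Scarb1, a lipoprotein receptor gene, by 0.52. Lman1, which helps to carry coagulation factors out of the endoplasmic reticulum, fell by 0.26. Furin, whose protease removes the propeptide, fell by 0.18, a call lost when control library 3 (-0.18) or inhibitor library 1 (-0.15), 2 (-0.19) or 3 (-0.19) was left out. The gene of the cleaving protease, Adamts13, was at -0.00 ± 0.12 and 13.7 CPM in both groups. Without inhibitor library 1, 4 genes of the list were lower.

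Other adhesion ligands and receptors showed the most rises of the 7 lists. Of 21 tested, 15 rose, 1 fell and 5 were not called, and the median was 0.87, beside 40.5% called and a median of -0.01 over all genes. The collagen integrin chain Itga2 rose by 0.97 ± 0.10, and the fibrinogen receptor chains Itga2b and Itgb3 by 1.08 ± 0.09 and 1.23 ± 0.05. Cd36, a receptor for thrombospondin and collagen, had 27.5, 31.9 and 32.0 CPM in the controls and 104.6, 100.5 and 113.0 CPM with the inhibitor. All of its inhibitor libraries were above the controls, with a change of 1.80 ± 0.08, and Thbs1, the thrombospondin gene, changed by 2.33 ± 0.06. Itga2b, Itgb3 and Cd9 are also in the marker list.

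Ligands of the other receptors were among these genes. Pdpn, which encodes podoplanin, the ligand of CLEC-2, had 10 counts over the controls and 86 over the inhibitor libraries, a change of 3.24 ± 0.53 at a level of 0.16 and 1.59 CPM. The collagen genes Col1a1, Col1a2 and Col3a1 had at most 8 counts in either group, and Fga, Fgb, Fgg and Vtn had 0. The basement membrane collagen genes Col4a1 (193 counts over the controls and 360 over the inhibitor libraries, 1.09 ± 0.20) and Col4a2 (159 and 348 counts, 1.32 ± 0.19) rose. Fn1, the fibronectin gene, was the 1 lower gene, at -0.26 ± 0.09. It did not pass without control library 2 (-0.16) or 3 (-0.27) or inhibitor library 1 (-0.22) or 3 (-0.23), which left 0 lower genes, and 2 genes were lower without control library 1.

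GPIb alpha, GPV and GPVI are shed from platelets by metalloproteases, chiefly those encoded by Adam17 and Adam10. Of 14 such proteases and their regulators tested, 8 rose, 3 fell and 3 were not called, and the median was 0.40 (40.5% called over all genes). Adam10, the main GPVI sheddase, rose by 0.37 ± 0.05, from 248.4 ± 4.50 to 320.4 ± 6.84 CPM. Adam17, the main GPIb alpha sheddase, fell by 0.19, from 207.5 ± 9.47 to 182.0 ± 0.88 CPM, but did not pass without control library 3 (-0.16). Rhbdf1, which encodes a carrier of the Adam17 product, rose by 2.03 ± 0.18 from 1.97 CPM, Adam8 by 1.46 ± 0.07 and the inhibitor gene Timp3 by 0.96 ± 0.05. Tspan14, which encodes a partner of the Adam10 product, fell by 0.27. Adam15 fell by 0.25 and did not pass without inhibitor library 3 (-0.19).

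Of 28 megakaryocyte transcription factor and signalling genes tested, 9 rose, 8 fell and 11 were not called (40.5% called over all genes), the median was 0.05, and none of those called changed by 2-fold or more. The GATA factor gene Gata1 rose by 1.00 ± 0.10, from 18.8 ± 1.68 to 37.5 ± 3.10 CPM, and its cofactor Zfpm1 by 0.92 ± 0.07. Gata2 fell by 0.36. The kinase gene Jak2 rose by 0.79 ± 0.08 and Nfe2, a factor of late platelet formation, by 0.41 ± 0.06. Lmo2 fell by 0.45 and Srf by 0.39. The ETS factor gene Fli1 fell by 0.19, a call lost without control library 3 (-0.18) or inhibitor library 2 (-0.17). Runx1 rose by 0.22 ± 0.06 and did not pass without inhibitor library 1 (0.20) or 2 (0.20). Without control library 3 or inhibitor library 2, 4 genes of the list were lower, and without inhibitor library 3, 5.

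**Figure D5:**
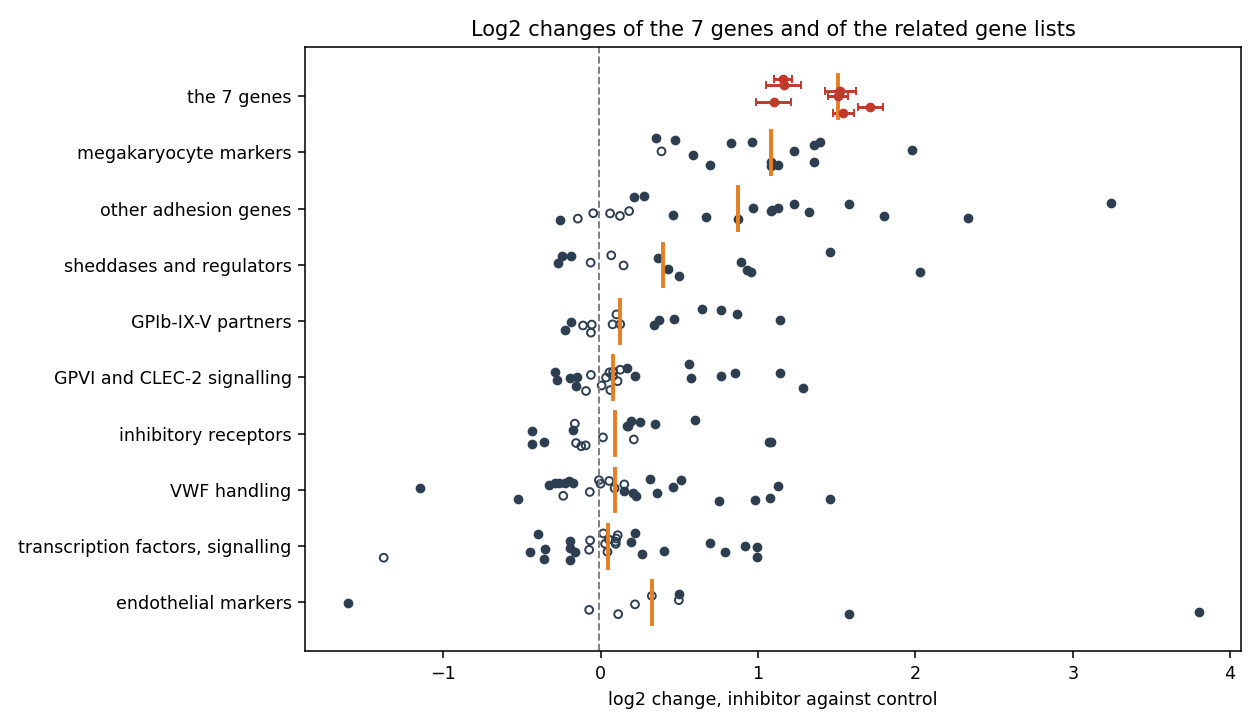
Log2 change of inhibitor against control for the 7 genes (red, whiskers are the SE) and for each tested gene of 9 lists, with the median as an orange bar. Filled points passed the adjusted p of 0.05 (edgeR) and open points did not. The medians are 1.51 for the 7 genes, 1.08 for megakaryocyte markers, 0.87 for other adhesion genes and 0.05 to 0.40 for the other lists.

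The genes that lie beside the 7 on the chromosomes were examined next. Of the 30 nearest or overlapping genes, 15 were tested, with 3 higher, 4 lower and a median of -0.03, where 40.5% of all tested genes were called and 20.4% were higher. The higher genes were Sept5, which overlaps Gp1bb (1.12 ± 0.24, Benjamini-Hochberg adjusted p = 0.00156 by edgeR's quasi-likelihood fit, higher in all 3 inhibitor libraries), Cd9, a tetraspanin gene 58188 bases from Vwf (1.13 ± 0.05), and Slc25a11, which begins 33 bases beyond Gp1ba (0.17 ± 0.06). Slc25a11 did not pass without control library 3 (0.15) or any 1 of the inhibitor libraries (0.19, 0.19 and 0.13 without 1, 2 and 3). The lower genes were Cdc45 near Gp1bb (-0.35 ± 0.06), Isy1 near Gp9 (-0.36 ± 0.09), and Rdh13 (-0.33 ± 0.11) and Eps8l1 (-0.59 ± 0.15) near Gp6. Rdh13 did not pass without inhibitor library 1 (-0.27) or 2 (-0.34). Atp13a3, which begins 1642 bases from Gp5, was at -0.10 ± 0.07 and did not pass, except without control library 1 (-0.18) or with control libraries 1 and 3 both left out (-0.20). Rnf167 (-0.03), Gnb1l (0.07), Tmem44 (0.31), Rab43 (0.01), Clec12a (-0.12) and Clec9a (0.26) did not pass.

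The genes with the most similar pattern over the 6 libraries were found by the root mean square distance of log2 CPM, centred on the mean of each gene. The nearest to Gp1ba was F2rl2, a thrombin receptor gene, at a distance of 0.04, before Nrep (0.07) and Rnf128 (0.08). Gp1bb was nearest to Tspan9 (0.04), Slc22a23 and S100a9 (0.06 each), and Gp5 to Nrep (0.04), Adam8 and Parvb (0.05 each). Gp9 was nearest to Nr6a1 (0.06), Myo1e and Flt1 (0.08 each). Gp6 was nearest to Nrep, Robo3 and Gp5 (0.07 each), the one case in which another of the 7 was among the nearest 3. Clec1b was nearest to Pde4b (0.04), Dusp5 and Speg (0.05 each), and Vwf to Id2 and Cdkn1a (0.04 each) and Itgb3 (0.05). These distances hold the group difference and the library to library spread together, and Nrep and Speg had under 5 CPM in both groups.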

How the data were processed

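RNA of the 6 libraries was extracted with Trizol and made into mRNA libraries with a VAHTS V3 kit, per the labels. The authors deposited read counts per gene symbol, not normalised, and RPKM values, per the file headers. The submitters' processing notes name mm10 and bcl2fastq 2.20. Which programs aligned and counted the reads, and whether strand was used, is not given in the sources used here. The tables held 0 columns of other series.

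Genes were filtered with filterByExpr (minimum count 10, minimum total 15), scaled by TMM and tested with the robust quasi-likelihood test of edgeR 4.0.16 (R 4.3.3), inhibitor against control, with Benjamini-Hochberg adjustment over 12978 genes and a threshold of 0.05. Each library counted as 1 sample. Libraries of a group differed by more than counting noise, but that scatter may be technical, so it does not show that they are independent. Levels are TMM-normalised CPM. DESeq2 1.42.0 and limma 3.58.1 (voom) served as alternatives, beside other size factors and filters, a replicate block and left-out libraries. The 7 genes, the gene lists, the markers and the letters searched were chosen with earlier results of these data known. Named in the text are the 7 genes, fixed genes of each list, the 3 list genes with the smallest p in each direction, neighbours averaging at least 10 counts per library, and the 3 genes most alike. Genes named outside this rule, such as Pf4, Ppbp, Tubb1 and the endothelial markers, were chosen after their values were seen. Some genes that the rule names are not reported here. Promoters and the microRNA are from RefSeq on GRCm38.p6.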

Additional observations from a re-analysis of the deposited data

How the results depend on the processing

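The counts of called genes kept their direction and lay within 1.5 times in most alternatives, and the exceptions follow; their cause was not tested, apart from the stricter threshold. At an adjusted p of 0.01 there were 1585 lower genes in all, 0 lower among the other adhesion genes, 1 among GPIb-IX-V partners, 1 among inhibitory genes (5 higher), 2 in GPVI and CLEC-2 signalling, 3 among transcription factors, 1 among sheddases and 5 in VWF handling. Without control libraries 1 and 3, 2 other adhesion genes, 1 partner gene and 3 signalling genes were lower, and the log2 changes of Gp5, Gp6, Gp9 and Vwf were 1.60, 1.71, 1.32 and 1.25. The calls of Adam15, Calm3, Card9, Furin, Isy1, Rdh13, Slc25a11 and Ubash3a were lost in that setting. The labels do not say whether equal replicate numbers pair the libraries. Deviations from the group means correlated at 0.06, 0.01 and 0.04 for equal numbers and at -0.05 to 0.02 for unequal ones. With 3 libraries per group, such values cannot decide it. With the replicate block 2831 genes were higher and 2842 lower, and 2 other adhesion genes were lower. Leaving out 1 library gave 2181 to 2849 higher and 1877 to 2843 lower genes. The lower genes then numbered 0 to 2 among other adhesion genes, 1 to 2 among partners, 2 to 5 among inhibitory genes, 2 to 5 in signalling, 4 to 8 among transcription factors and 4 to 8 in VWF handling. Changes near 0 turned sign. Adamts13 was at 0.0062 with DESeq2, 0.0058 with RLE factors, 0.0062 with a stricter filter and 0.074 without control libraries 1 and 3, when Rnf167 was at 0.063. With single libraries left out, Adamts13 ranged from -0.096 to 0.066, Gnb1l from -0.00165 to 0.206, Plcg2 from -0.015 to 0.032, Rab43 from -0.031 to 0.061 and Rnf167 from -0.074 to 0.014. The median change of all genes stayed between -0.01 and 0.02. Depth limits the genes with few counts: 3 counts are 0.141 to 0.178 CPM, and Pdpn rests on 10 and 86 counts.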
